A study of Mus musculus with 23 samples.

Results

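Chromatin accessibility was compared between Kdm5c siRNA and a scramble control at the earliest time of the study, 24 hours after transfection, which the labels call day -2. The raw count table of that day held 84016 peaks of the nuclear genome, and all of them were taken after the mitochondrial peaks had been set aside. They were counted in 8 of the 23 libraries of the series, 4 for each arm. Each day of the study has its own peak table, and the nuclear peaks of the 3 tables add up to 153033. The cells were 3T3-L1, an established mouse line of fibroblast-like preadipocytes that turns into fat cells under a hormone cocktail. All of them were kept in preadipocyte medium and were reverse-transfected with Lipofectamine RNAiMAX on day -3, while still below confluence. The scramble arm received 50 nM of a non-targeting ON-TARGET siRNA and the other arm 50 nM of siRNA against mouse Kdm5c, both from Dharmacon. The labels do not say whether replicates were separate cultures, so p-values measure the spread between these libraries, which may be technical. The assay was ATAC-seq on nuclei of bulk cells, so less opening in every cell and loss of opening in some cells cannot be told apart.

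Kdm5c is an X-linked enzyme that takes methyl groups off lysine 4 of histone H3, a mark that stands at active promoters in its trimethylated form and at enhancers in its monomethylated form. Loss of such an enzyme is therefore often studied through the promoters of genes it keeps quiet, among them germline genes. In ATAC-seq a transposase cuts and tags DNA that nucleosomes leave bare, and the counts in a peak follow how open that stretch is. Preadipocytes at this stage still divide, and the adipogenic factors Cebpb, Cebpd, Pparg and Cebpa act mainly once differentiation is induced.

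Nuclear peaks held 1816082 to 3345583 counts per library. Mitochondrial peaks took 56.4% to 70.02% of all counts with Kdm5c siRNA and 70.4% to 76.3% with scramble, so the arms stood apart in that share (63.8% ± 6.26 against 73.5% ± 2.85, SD, n = 4 each, two-sided exact permutation p = 0.0286, the smallest that 70 arrangements allow). Replicate 2 of Kdm5c siRNA stood apart from the other 7 libraries. Its mean Spearman correlation with them over tested peaks was 0.800, against 0.834 to 0.852 for each of the others. Peaks under 150 bp wide held 12.3% of its nuclear counts and 7.06% to 8.98% of theirs. Several results below are therefore also given without it.

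Promoters made up a small part of the peaks and a large part of the signal. The authors gave a gene name to 12265 nuclear peaks, called the promoter class here, which are 14.6% of all peaks and held 35.3% of the nuclear counts. These named peaks were wide, with a median of 649 bp against 189 bp for peaks away from genes and 179 bp for other peaks inside a gene. Of the promoter-class peaks on the chromosomes that a RefSeq start table covers, 61.4% lay over a transcription start, against 2.27% of the other peaks. They named 11023 genes and covered 47.2% of 21900 coding genes. The remaining peaks split into 35388 inside a gene, 4170 within 1 kb of a gene end and 32193 elsewhere, with 28.1%, 4.87% and 31.8% of the counts.

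The promoter-class peaks with the highest counts per kb lay mostly in a few stretches of the genome. The order among the 10 highest, by normalised counts per kb in scramble, ran from AY036118 at 8987 over Mdm2 at 3843, Mir6236 at 2299 and Slc35e3 at 2221 down to Sfi1 at 854, Cpm at 838, Kifc5c-ps at 651, Fau-ps2 at 545, Cwc22 at 535 and Lyz2 at 506. The median promoter-class peak stood at 80.3. Mdm2, the ubiquitin ligase that holds p53 down, Slc35e3, Cpm, a membrane carboxypeptidase, Kifc5c-ps and Lyz2, a lysozyme, all lie between 117000001 and 118000000 of chromosome 10. The 500 kb windows there held 196 and 80.2 times the counts of the median window, and Cwc22, a splicing factor, lay in a window of chromosome 2 at 35.4 times the median. AY036118, in a window of chromosome 17 at 167 times the median, overlapped the ribosomal RNA pseudogene Rn18s-rs5 (39846354-39848202). It lay 49605 bases from the nearest RefSeq start. Sfi1 and Fau-ps2 shared a window of chromosome 11 at 14.3 times the median, 8502 and 5459 bases from a start. Among the 10, only Mdm2, Slc35e3, Cpm and Cwc22 had peaks over a RefSeq start. Whether copy number sets these levels was not tested. Windows of 4 of these promoters, from RefSeq (GRCm38.p6, from 250 bases before the start to 50 after it, 5′ to 3′ on the gene's strand), are printed here because the signal of this day is highest there. Capitals mark matches on either strand to 10 motifs that were searched, and the windows are Mdm2 at chr10:117710709-117711008 (minus), Slc35e3 at chr10:117746309-117746608 (minus), Cpm at chr10:117629250-117629549 (plus) and Cwc22 at chr2:77946307-77946606 (minus).
Mdm2: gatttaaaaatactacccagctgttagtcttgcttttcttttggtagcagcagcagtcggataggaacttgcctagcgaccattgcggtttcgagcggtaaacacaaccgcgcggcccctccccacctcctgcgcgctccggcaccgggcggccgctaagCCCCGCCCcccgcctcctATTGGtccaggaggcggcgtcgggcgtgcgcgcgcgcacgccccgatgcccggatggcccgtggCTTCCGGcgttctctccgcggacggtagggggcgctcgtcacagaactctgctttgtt
Slc35e3: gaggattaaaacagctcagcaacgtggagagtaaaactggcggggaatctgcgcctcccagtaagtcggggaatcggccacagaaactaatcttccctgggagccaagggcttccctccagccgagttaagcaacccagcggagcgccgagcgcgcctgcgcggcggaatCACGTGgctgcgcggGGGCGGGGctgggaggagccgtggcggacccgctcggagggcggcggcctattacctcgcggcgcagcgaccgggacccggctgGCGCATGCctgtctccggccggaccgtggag
Cpm: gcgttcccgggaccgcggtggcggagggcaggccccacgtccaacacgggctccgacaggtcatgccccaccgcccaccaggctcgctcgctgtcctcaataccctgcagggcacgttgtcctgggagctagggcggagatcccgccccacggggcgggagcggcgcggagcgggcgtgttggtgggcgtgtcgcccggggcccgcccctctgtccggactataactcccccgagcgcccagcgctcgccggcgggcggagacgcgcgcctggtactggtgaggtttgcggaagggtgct
Cwc22: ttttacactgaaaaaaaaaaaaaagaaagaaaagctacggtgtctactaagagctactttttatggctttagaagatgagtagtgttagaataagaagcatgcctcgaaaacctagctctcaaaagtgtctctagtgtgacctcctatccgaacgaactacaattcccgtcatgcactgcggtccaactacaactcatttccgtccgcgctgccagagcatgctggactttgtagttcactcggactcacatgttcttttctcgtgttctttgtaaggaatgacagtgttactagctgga
The motifs were CCGGAAG of ETS factors, GCGCATGC of NRF1, AAGATGGC of YY1, CCAAT of NF-Y, GGGCGGGG of SP and KLF factors, TGACGTCA of CREB and ATF, TGANTCA of AP-1, TATAAA of the TATA box, CTCGCGAG of the CGCG element and the E-box CACGTG. Matches of different motifs may overlap. Cpm is 73.7% G or C and held none of them, and Cwc22 held none at 42% G or C.

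High-count windows were those of 500 kb with over 4 times the count of the median window, 329 of the 4415 windows with a peak. They held 33.9% of the nuclear counts with Kdm5c siRNA and 33.3% with scramble. Outside all of them the highest promoters over a start belonged to genes with varied roles, a choice made after their values were seen. Sp4, a zinc finger factor of the SP family, led at 12:118300888-118302621 with 424 normalised counts per kb in scramble. Osbp, a sterol carrier, followed at 386, Mon1b at 376, Mad2l1, the spindle checkpoint protein, at 354 and Eif2ak3, the stress kinase PERK, at 336. Sp4 held 589, 601, 703 and 729 normalised counts in Kdm5c siRNA replicates 1 to 4 and 657, 758, 788 and 739 in scramble, so the arms overlapped (log2 fold change -0.17, SE 0.11). All 12 of the highest such promoters had a log2 fold change between -0.22 and -0.03, on a ranking that used the scramble libraries.

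Open promoters differed in sequence from the rest of the table. The 7361 RefSeq windows under a promoter-class peak had a median of 62.7% G or C and 23 CpG, against 52.7% and 7 over all 32851 windows of the table. The ETS motif was in 19.97% of the former and 8.86% of all windows, the SP and KLF motif in 37.5% and 17.6%, and the NRF1 motif in 6.13% and 2.71%. The TATA box went the other way, with 5.80% against 13.6%, and so did AP-1, with 4.39% against 7.81%. Within the covered windows the 1473 most open held the NF-Y motif in 51.5% of windows and the 1473 least open in 32.2%. These shares are descriptions over windows, which share base composition, and no test was made.

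Chromosomes differed widely in how many peaks lay away from promoters. Chromosome 6 had 12.6 other peaks for each promoter-class peak and chromosome 5 had 9.12, while X had 2.25 and chromosome 11 had 3.11. Promoter-class peaks themselves were also more counted on some chromosomes, with a median raw count per library of 74.2 on chromosome 5 and 69.0 on chromosome 6 against 40.0 on chromosome 11 and 47.1 on X. Over the 20 chromosomes Spearman's rho between both quantities was 0.73, a description only, since both come from the same libraries and depth.

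**Figure D1:**
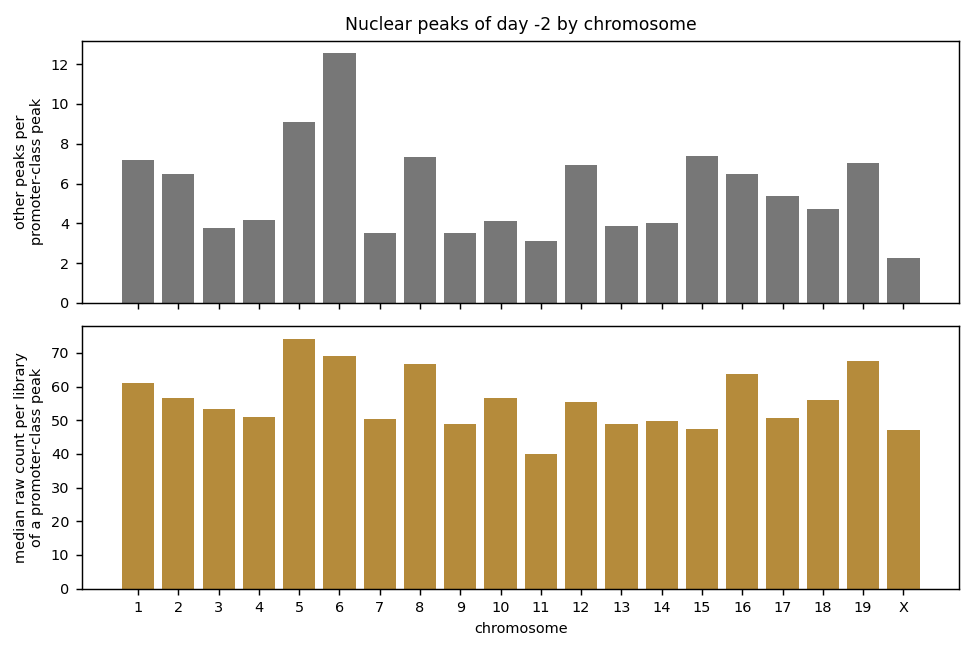
Number of other peaks for each promoter-class peak (top) and median raw count per library of a promoter-class peak (bottom) for each chromosome. Chromosomes 5 and 6 are high in both panels, and X has the lowest bar in the top panel, at 2.25.

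Marker genes of the cell type and of other cell types were looked up among the promoters, without a test between the groups. Of 16 preadipocyte and fibroblast markers 10 had a promoter-class peak (62.5%, against 47.2% of all coding genes), among them Twist1, Twist2, Pdgfrb, Vim and Cd44, while Pdgfra, Fbn1, Nr2f2, Osr1, Meox2 and Tcf21 had none. Fbn1 did have a peak over its start that the authors did not give to it. A promoter-class peak was found for 1 of 10 epithelial, 1 of 10 neuronal, 2 of 10 leukocyte, 4 of 10 endothelial and 5 of 10 skeletal muscle markers. A peak of any class lay over a start for 7 of the 12 preadipocyte and fibroblast markers in the start table. For the other types it was 0 of 6 epithelial, 1 of 8 neuronal, 0 of 7 leukocyte, 1 of 5 endothelial and 0 of 7 skeletal muscle markers. Of 23 names on the list of adipogenic factors 17 had a promoter-class peak before induction. Krox20 and Egr2, listed without one, are names of the same gene. A peak that the authors did not give to it lay over its start, as at Zfp467. Per kb, scramble libraries had 112 normalised counts at Cebpb, above the median promoter at 80.3, and 76.1 at Pparg, 75.7 at Cebpd and 69.9 at Cebpa, a little below it. Of 24 genes of mature fat cells and lipid metabolism 14 had a promoter-class peak. Highest per kb in scramble were Plin4, of the lipid droplet coat, at 175 and Dgat1 and Fasn, of triglyceride and fatty acid synthesis, at 154 and 135. Lpl, Pnpla2, Dgat2, Agpat2, Lep and Slc2a4 lay below the median, between 40.3 and 75.7. The 10 genes without such a peak were Fabp4, Adipoq, Plin1, Cidec, Lipe, Cd36, Retn, Cfd, Acaca and Lpin1, although a peak that the authors did not give to Lipe lay over a start of that gene.

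Shares of the counts along the genome showed no difference between arms past the threshold, in a design that could hardly show one. The smallest exact p of 0.0286 becomes 0.229 for a single measure after adjustment over 8, and 0.571 for a single chromosome over 20, so only several measures together could pass. The share of nuclear counts in promoter-class peaks was 34.6%, 34.0%, 36.7% and 35.9% with Kdm5c siRNA and 34.7%, 35.9%, 36.3% and 34.4% with scramble (35.3% ± 1.20 against 35.4% ± 0.937, SD, n = 4 each, exact permutation p = 0.914). Peaks inside genes, elsewhere, at least 1 kb wide, among the 1000 most counted or in the high-count windows gave adjusted exact permutation p of 0.943 each. The smallest of the 8 p-values belonged to peaks within 1 kb of a gene end, at 4.92% ± 0.108 against 4.81% ± 0.0437 (n = 4 each, exact permutation p = 0.0857, 0.686 after Benjamini-Hochberg adjustment over 8 measures). Over the 20 chromosomes none passed after adjustment. Chromosome 11 reached the smallest p possible, with 4.45% ± 0.0382 of the counts against 4.31% ± 0.0110 and arms that did not overlap (n = 4 each, exact permutation p = 0.0286, adjusted 0.571). The X chromosome, where Kdm5c itself lies, held 1.38% ± 0.144 and 1.46% ± 0.0767 (exact permutation p = 0.4, n = 4 each).

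Peak by peak, 1 of 44194 tested nuclear peaks was called by edgeR's quasi-likelihood test at a Benjamini-Hochberg adjusted p under 0.05, or 0.00226%. At an unadjusted p under 0.05, 1068 peaks (2.42%) were higher and 982 (2.22%) lower with Kdm5c siRNA, and the normalised counts of the arms did not overlap at 1189 peaks (2.69%). On the same 44194 peaks DESeq2 called none, with 2119 at an unadjusted p under 0.05. The precision was best at promoters. Their median standard error, derived from the F statistic of the test, was 0.20 on the log2 scale. The 95% confidence interval built on it lay wholly within 2-fold of no change at 85.3% of promoter-class peaks and within 1.5-fold at 55.9%. For the other peaks these shares were 51.7% and 15.9%. Peaks with a fold change near 0 enter all of these shares, and standard errors derived in this way are unreliable there.

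**Figure D2:**
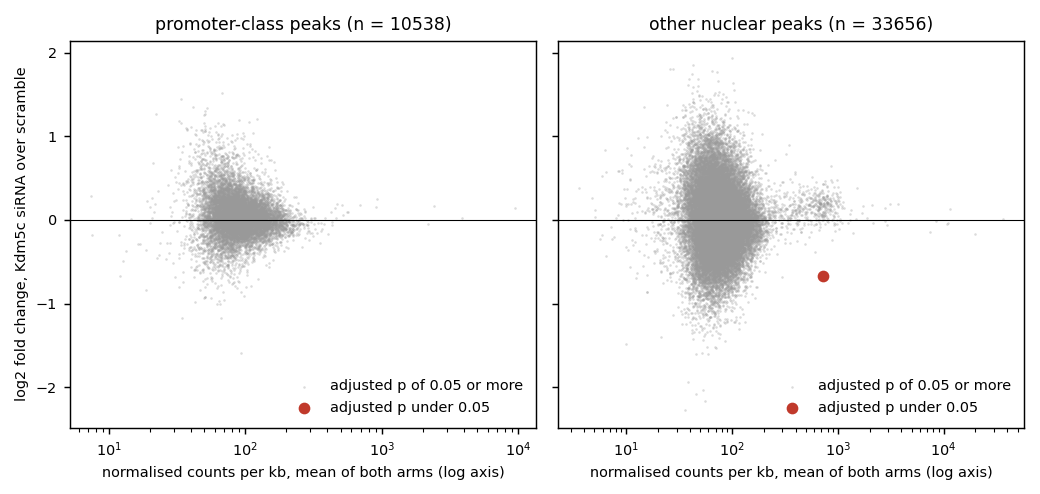
Log2 fold change of Kdm5c siRNA over scramble against the mean normalised counts per kb of both arms (log axis) for 10538 promoter-class peaks (left) and 33656 other nuclear peaks (right). The red point is the only called peak, and promoter-class peaks lie in a narrower band than the others.

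The called peak lay at 1:24611585-24616148 over the pseudogenes Gm10222 (24612404-24612700) and Gm10925 (24613971-24614651), and the gene table lists mt-Atp6, a subunit gene of the mitochondrial ATP synthase, as another name of Gm10925. Normalised counts were 1774, 2460, 2547 and 3454.18 in Kdm5c siRNA replicates 1 to 4 and 3454.39, 5063, 3697 and 4067 in scramble. The peak fell by 0.67 on the log2 scale (SE 0.12, adjusted p = 0.00263 by edgeR), and the highest Kdm5c siRNA library and the lowest scramble library were all but equal. DESeq2 on the same peaks did not call it (unadjusted p = 0.00397), nor did edgeR on peaks of at least median abundance (adjusted p = 0.934). The ratio of mitochondrial to nuclear counts, from outside this peak, differed by nearly as much, at -0.65 (1.82 ± 0.479 against 2.81 ± 0.408, n = 4 each, exact permutation p = 0.0286). Per 10000 mitochondrial counts, the same peak held 5.80, 6.30, 5.35 and 6.31 raw counts with Kdm5c siRNA and 6.18, 6.81, 6.37 and 5.61 with scramble, so the arms overlapped (log2 difference -0.07, exact permutation p = 0.429, n = 4 each). Another peak, within the myosin gene Myo3a at 2:22588662-22590179, gave -0.65 in the fit without being called (adjusted p = 0.984) and -0.07 per mitochondrial count (exact permutation p = 0.771, n = 4 each). It was called without Kdm5c siRNA replicate 3, without its replicate 4 and without scramble replicate 1 (adjusted p = 0.00851, 0.00594 and 0.00260 by edgeR's quasi-likelihood test). A neighbouring Myo3a peak at 2:22587395-22588301, at -0.69 with all libraries, was called at -1.53 without Kdm5c siRNA replicate 3 and at -0.69 without scramble replicate 1. Both were chosen after their values were seen.

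**Figure D3:**
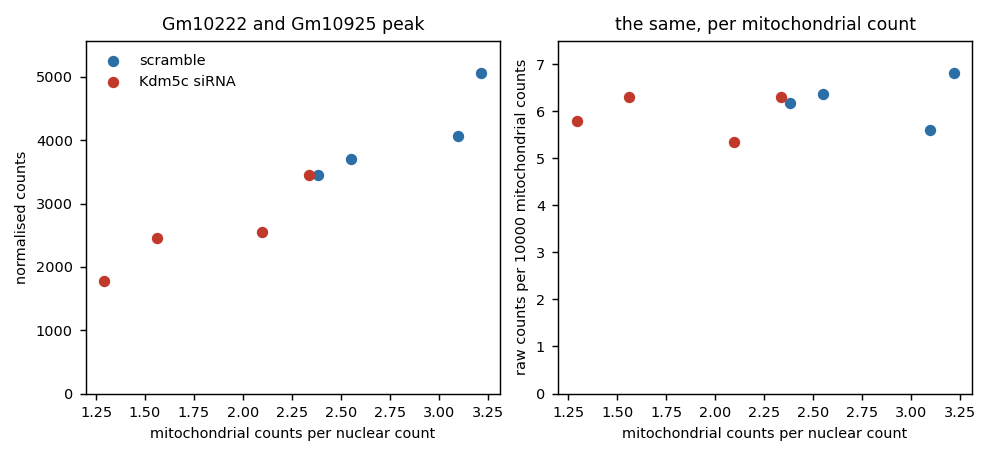
Counts of the Gm10222 and Gm10925 peak against mitochondrial counts per nuclear count in the 8 libraries, as normalised counts (left) and per 10000 mitochondrial counts (right). On the left the libraries line up along the ratio, and on the right they stay between 5.35 and 6.81.

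None of the 10538 tested promoter-class peaks was called by edgeR. At an unadjusted p under 0.05, 357 of them (3.39%) were higher and 132 (1.25%) lower with Kdm5c siRNA, so 73.0% of these were higher, against 45.5% among other peaks. Without Kdm5c siRNA replicate 2 the counts were 286 and 158. DESeq2 on the same peaks gave 362 and 129. With no filter on low counts the split was near even, at 201 and 198 with edgeR and 165 and 142 with DESeq2. The promoter peaks described next were picked by p among peaks of at least median abundance whose arms did not overlap, clone symbols left out. There were 181 higher and 79 lower. The fit at that abundance held 8695 promoter-class peaks, clone symbols included, and arms did not overlap at 2.69% of all tested nuclear peaks. The separation between arms of the picked peaks is given by the choice.

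On the higher side were Mus81, Coro1b, Nckap5l, Slc39a7, Frmd4b, Gga1, Hrasls5, Cisd1 and Rnf8, with log2 fold changes from 0.53 to 1.07 and an adjusted edgeR p of 0.984 each. Mus81, a nuclease that cuts branched DNA during recombination, had its peak at 19:5488067-5488505. It held 101, 74.1, 86.6 and 91.3 normalised counts with Kdm5c siRNA and 62.1, 66.2, 51.5 and 40.0 with scramble (log2 fold change 0.70, SE 0.19). Kdm5c siRNA replicate 2 was its lowest treated library and was still above each control. Nckap5l, a microtubule-binding protein, held 94.7, 153, 92.2 and 114 against 69.6, 69.97, 71.6 and 88.7 at 15:99457371-99458152 (0.59, SE 0.17). Here Kdm5c siRNA replicate 2 was the highest library, without which the value was 0.40, and scramble replicate 4 stood close to the lowest treated ones. Slc39a7, a zinc transporter of the endoplasmic reticulum, held 94.7, 112, 78.7 and 92.4 against 52.2, 59.8, 59.2 and 73.8 at 17:34031568-34032125 (0.61, SE 0.18). Frmd4b, a scaffold with a FERM domain, had the greatest log2 fold change of the group, 1.07 (SE 0.32), from few counts, 36.0 ± 9.16 against 17.3 ± 8.30 (SD, n = 4 each). Rnf8 is a ubiquitin ligase of the DNA damage response, Gga1 is a clathrin adaptor of the Golgi, Coro1b binds actin and Cisd1 is an iron-sulfur protein of the outer mitochondrial membrane.

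RefSeq windows of 3 of these promoters are shown to set their make-up beside that of the lower group, with motif matches in capitals as above: Mus81 at chr19:5488330-5488629, Nckap5l at chr15:99457699-99457998 and Slc39a7 at chr17:34031641-34031940, all on the minus strand.
Mus81: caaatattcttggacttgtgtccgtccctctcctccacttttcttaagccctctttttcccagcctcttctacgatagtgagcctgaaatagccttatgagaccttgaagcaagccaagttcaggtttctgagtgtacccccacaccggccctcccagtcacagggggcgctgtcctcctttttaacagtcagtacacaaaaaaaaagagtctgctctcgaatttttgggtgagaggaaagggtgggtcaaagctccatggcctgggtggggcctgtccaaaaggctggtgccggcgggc
Nckap5l: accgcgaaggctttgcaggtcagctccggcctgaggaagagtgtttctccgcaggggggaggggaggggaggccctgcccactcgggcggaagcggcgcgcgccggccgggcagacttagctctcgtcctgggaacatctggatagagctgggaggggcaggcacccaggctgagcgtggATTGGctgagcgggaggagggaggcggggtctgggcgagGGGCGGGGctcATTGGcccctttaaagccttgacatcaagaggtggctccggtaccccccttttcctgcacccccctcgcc
Slc39a7: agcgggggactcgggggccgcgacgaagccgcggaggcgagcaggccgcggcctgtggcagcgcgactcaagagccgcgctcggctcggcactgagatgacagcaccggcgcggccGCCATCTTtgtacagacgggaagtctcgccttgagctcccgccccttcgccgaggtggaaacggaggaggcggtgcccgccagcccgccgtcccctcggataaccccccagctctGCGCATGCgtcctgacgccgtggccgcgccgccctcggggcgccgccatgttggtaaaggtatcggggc
The Slc39a7 window is 72.7% G or C with 42 CpG and holds an NRF1 and a YY1 match, the Nckap5l window holds 2 NF-Y matches and 1 of SP and KLF, and the Mus81 window, at 52.3% G or C, holds none.

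On the lower side were Hist1h1c, Mbnl2, Snora78, Hist1h4d, Mrpl36, Amer1, Nedd1, Lix1l, Ndrg3 and Galc, with log2 fold changes from -0.74 to -0.43 and an adjusted edgeR p of 0.984 each. Hist1h1c, which encodes the linker histone H1.2, had the smallest p of all promoters. Its peak at 13:23738507-23740016 held 76.4, 83.1, 81.1 and 87.8 normalised counts with Kdm5c siRNA and 132, 126, 121 and 128 with scramble (log2 fold change -0.62, SE 0.16, unadjusted p = 0.000103). Both arms were tight, at 82.1 ± 4.69 and 126.7 ± 4.39 (SD, n = 4 each). Hist1h4d, a gene of core histone H4, held 38.8, 47.2, 36.6 and 44.5 against 78.3, 53.4, 64.9 and 68.3 at 13:23581416-23582142 (-0.66, SE 0.21). Mbnl2, a regulator of alternative splicing, held 59.5, 59.9, 50.1 and 50.3 against 92.0, 71.2, 89.7 and 91.8 at 14:120275291-120275980 (-0.65, SE 0.18). Scramble replicate 2 was its lowest control and lay above each treated library. Mrpl36, of the large subunit of the mitochondrial ribosome, was at -0.74 (SE 0.24), and Amer1, an X-linked regulator of Wnt signalling, at -0.48 (SE 0.15). Nedd1 brings gamma-tubulin to the spindle, and Galc is a lysosomal galactosylceramidase.

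**Figure D4:**
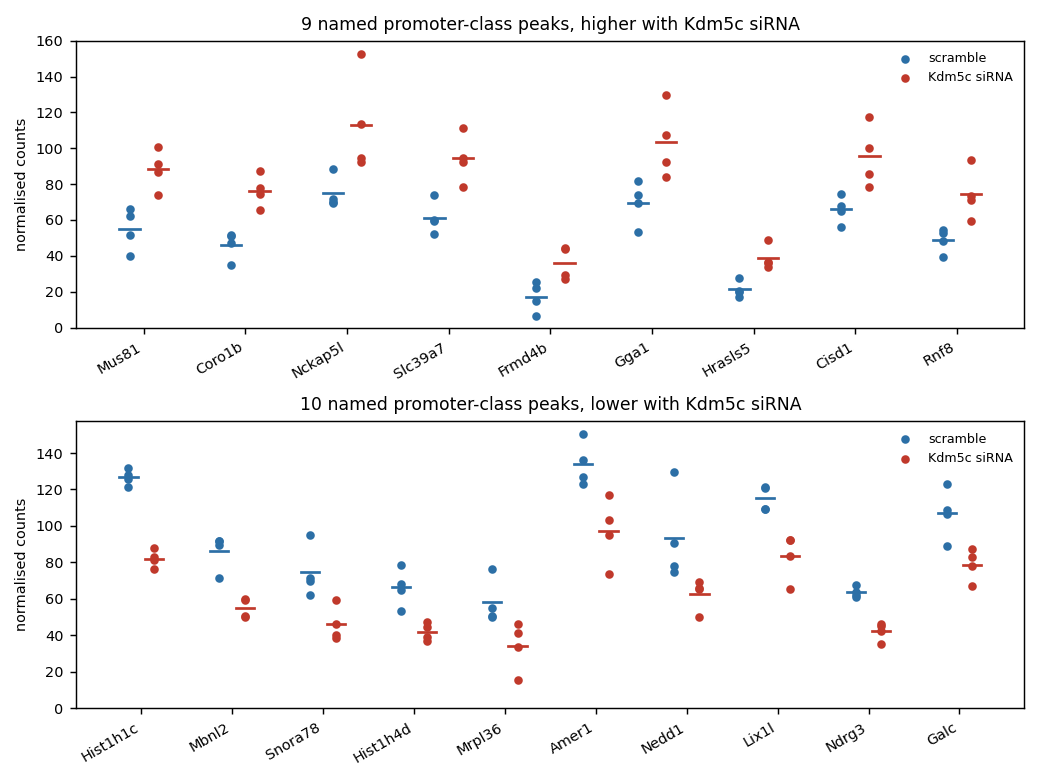
Normalised counts of the 19 named promoter-class peaks in each of the 4 scramble (blue) and 4 Kdm5c siRNA (red) libraries, with arm means as bars. The arms do not overlap because peaks were picked for that, and the gaps are widest against the scatter at Hist1h1c.

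The 3 windows of the lower group are Hist1h1c, which RefSeq calls H1f2, at chr13:23738557-23738856, Mbnl2 at chr14:120275419-120275718 and Hist1h4d, now H4c4, at chr13:23581318-23581617, all on the plus strand.
Hist1h1c: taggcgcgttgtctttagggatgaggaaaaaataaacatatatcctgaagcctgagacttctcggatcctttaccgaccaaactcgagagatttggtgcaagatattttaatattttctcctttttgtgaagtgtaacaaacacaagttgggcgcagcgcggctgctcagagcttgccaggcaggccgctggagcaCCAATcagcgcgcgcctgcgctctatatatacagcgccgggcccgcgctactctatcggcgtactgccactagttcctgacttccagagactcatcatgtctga
Mbnl2: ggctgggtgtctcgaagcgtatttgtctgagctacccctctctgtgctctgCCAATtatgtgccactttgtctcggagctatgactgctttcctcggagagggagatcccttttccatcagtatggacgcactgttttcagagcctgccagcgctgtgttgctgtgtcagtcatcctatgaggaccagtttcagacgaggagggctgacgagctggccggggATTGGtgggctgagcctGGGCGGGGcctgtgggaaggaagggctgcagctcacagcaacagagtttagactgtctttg
Hist1h4d: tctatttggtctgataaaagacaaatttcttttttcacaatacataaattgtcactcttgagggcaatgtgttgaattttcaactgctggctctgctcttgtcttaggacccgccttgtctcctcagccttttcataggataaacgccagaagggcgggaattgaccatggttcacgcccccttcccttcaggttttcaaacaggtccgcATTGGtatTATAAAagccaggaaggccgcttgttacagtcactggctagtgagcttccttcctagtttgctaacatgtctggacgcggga
Each of them holds an NF-Y match, which 37.4% of all windows hold, and Hist1h4d also holds a TATA box. G or C made up 50.3%, 56.3% and 45.7% of the bases.

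Base composition was described for promoters higher or lower at an unadjusted p under 0.05. These made up 4.64% of tested promoter-class peaks, and none was called. Among the 1454 covered promoters lowest in G or C (33.3% to 55.3%), 25 peaks were higher and 33 lower at an unadjusted p under 0.05, and among the 1397 highest (70.7% to 87.3%) 68 were higher and 12 lower. The median log2 fold change went from -0.01 to 0.05 between these groups. The windows of the 227 higher promoters held the SP and KLF motif in 45.4% and the YY1 motif in 3.96%, and those of the 97 lower ones in 32.0% and 9.28%. All windows under a promoter-class peak held them in 37.5% and 4.97%, so for YY1 the higher promoters lay near the share of all. The YY1 shares of the higher and lower promoters rest on few windows. Only these motifs, out of all that were searched, are given for the higher and lower promoters, and no test was made. Peak width moved with the fold change as well. Promoter-class peaks under 150 bp had a median of 0.19 and those of at least 1 kb 0.01, but without Kdm5c siRNA replicate 2 the former became -0.01 and the latter 0.02. The part of base composition and depth in these counts was not tested.

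Inside genes but outside the promoter class, the 6 higher peaks with the smallest p lay in or at the edge of Col1a1, Prss36, Syncrip, Rhof, Ccnt1 and Prkar1b, and the 6 lower ones in Tbc1d2b, Slco3a1, Lgr6, Gm6712, Phka2 and Ildr2. The Ccnt1 and Gm6712 peaks lay over a RefSeq start, of 9330020H09Rik and of Gm6712 itself. The Syncrip peak lay 486 bases from a start of Syncrip. The adjusted edgeR p was 0.984 for all 12. The Col1a1 peak, inside the gene of the main fibrillar collagen of fibroblasts at 11:94949183-94949526, held 36.4, 24.0, 23.8 and 64.4 normalised counts against 18.6, 11.4, 9.54 and 22.0 (log2 fold change 1.21, SE 0.33). Replicate 4 was the highest library in both arms. The promoter-class peak of Col1a1, at 11:94936167-94936303, was also on the higher side at 0.87 (SE 0.37, unadjusted p = 0.0218), with overlapping arms. Lgr6, a receptor for R-spondins, held 29.1, 26.2, 24.6 and 35.1 against 44.7, 64.9, 42.9 and 49.5 at 1:135021100-135021393 (-0.82, SE 0.25). Tbc1d2b was at -1.03 (SE 0.28), with 21.7 ± 8.73 against 43.0 ± 7.15 (SD, n = 4 each).

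The genes of H3 lysine 4 demethylases showed no called peak. The Kdm5c promoter peak at X:152232661-152233232 held 43.7, 59.1, 63.6 and 26.9 normalised counts with Kdm5c siRNA and 46.0, 56.0, 82.1 and 52.6 with scramble, and the arms overlapped (log2 fold change -0.26, SE 0.22, unadjusted p = 0.222). An siRNA acts on the transcript, so this peak does not check the knock-down, and transcript levels were not analysed here. Log2 fold changes at the related genes were -0.28 (SE 0.15) for Kdm5a, 0.12 (SE 0.22) for Kdm5b, 0.50 (SE 0.29) for Kdm1a, -0.04 (SE 0.16) for Kdm1b and -0.20 (SE 0.44) for Kdm2b. None had an unadjusted p under 0.05, and without Kdm5c siRNA replicate 2 Kdm5a was at -0.18 and Kdm5b at 0.01. Of the methyltransferase complexes that write the mark, 14 genes were tested and 1, Kmt2c, was higher at that threshold, at 0.26 (SE 0.13).

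Over 22 gene lists, 370 genes with a tested promoter-class peak were covered. No list member was called, and 17 genes (4.59%) had an unadjusted p under 0.05, 12 higher and 5 lower, against 3.39% and 1.25% of all promoter-class peaks. The histone list had the lowest median of the lists with more than 2 tested genes, -0.19 over 22 genes with 16 below 0. All promoter-class peaks had a median of 0.04, with 57.4% above 0. Of its members 3 were lower at an unadjusted p under 0.05, Hist1h1c, Hist1h4d and Hist1h2bf, the last at -0.74 (SE 0.28). H1f0, the linker histone of resting cells, was on the other side at 0.41 (SE 0.20). Of 19 genes with the name of the replication-dependent clusters, 17 of them on chromosome 13, 14 were below 0, from -0.74 to 0.16 in all. Without Kdm5c siRNA replicate 2 the list's median was -0.05 with 13 below 0, and leaving out any other library kept it between -0.23 and -0.11.

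Genes of the cell cycle, which carry out replication and division, had medians close to that of all promoters. The replication list stood at 0.05 with 16 of 26 above 0 and the mitosis list at 0.08 with 16 of 25, and neither had a member at an unadjusted p under 0.05. Without Kdm5c siRNA replicate 2 these medians were 0.10 and 0.02. Among 16 adipogenic factors, Cebpd, which acts early in the cascade, was higher at 0.29 (SE 0.14, unadjusted p = 0.0443), with 141, 158, 126 and 146 normalised counts against 122, 123, 111 and 111. Its arms did not overlap, while Pparg was at 0.04 (SE 0.19) and Cebpb at 0.11 (SE 0.15). Of 12 lipid genes of mature fat cells 9 were above 0, with Pnpla2, the first lipase of triglyceride breakdown, at 0.39 (SE 0.20). Of the preadipocyte list, Hes1, a Notch target that holds back differentiation, was at 0.30 (SE 0.14). The AP-1 list had 9 of 13 above 0, led by Fosl1 at 0.55 (SE 0.21), and its lowest member was at -0.58. In the Polycomb list Pcgf2 at 0.58 (SE 0.25; 0.33 without Kdm5c siRNA replicate 2) and Pcgf3 at -0.33 (SE 0.14), which are alternative subunits of the same kind of complex, stood on opposite sides. Further genes at an unadjusted p under 0.05 were Kdm2a at 0.33, Irf1 at 0.39, Vgll4 at 0.77 and Rplp1 at 0.54 on the higher side and Ndufv1 at -0.44 on the lower side. Few germline genes had a peak over a start, 3 of the 27 in the start table. A promoter-class peak was found at 10 of 30 (33.3%), against 47.2% of all coding genes. Only Stk31 at -0.24 and Sycp2 at -0.43 passed the filter on low counts, so the list gives no view of its other members.

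**Figure D5:**
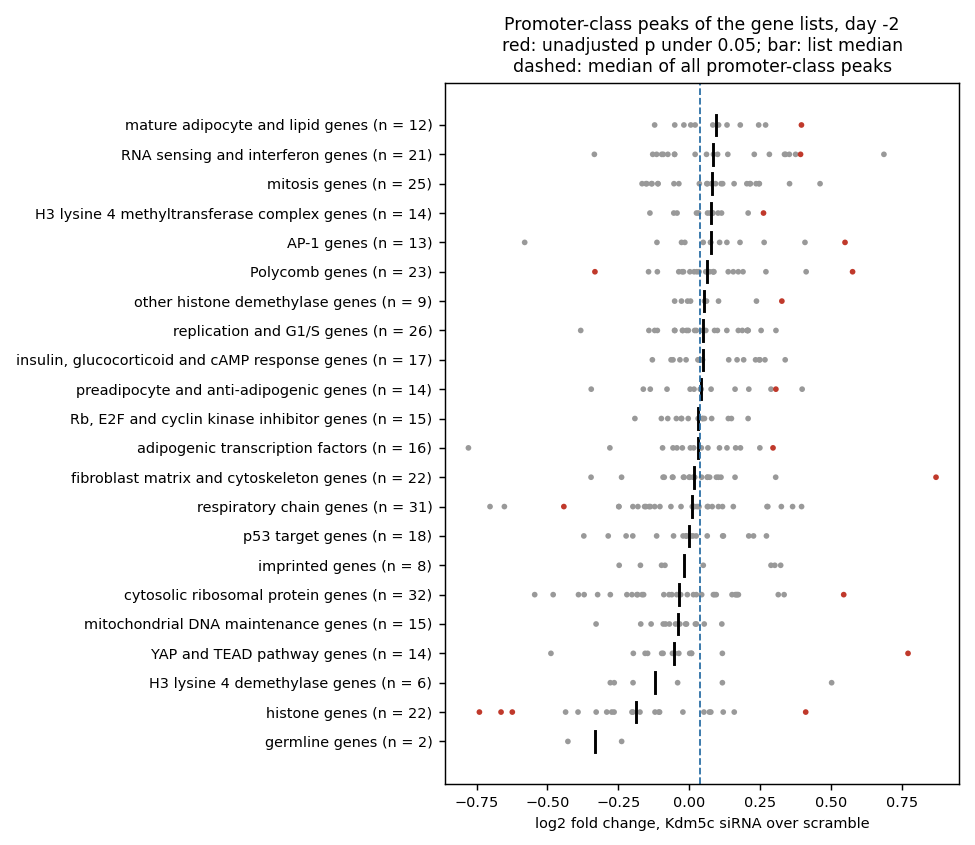
Log2 fold change of Kdm5c siRNA over scramble for each tested gene of 22 lists, with list medians as bars and the median of all promoter-class peaks dashed. Red points have an unadjusted p under 0.05, and the histone list has its median at -0.19 with 3 red points on the lower side.

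The stretch of chromosome 10 around Mdm2 held 3.82% of the nuclear counts. Of its 274 tested peaks outside the promoter class, 244 had a log2 fold change above 0, with a median of 0.18, and none was called. Without Kdm5c siRNA replicate 2 their median was 0.09 with 211 above 0. All tested peaks outside the promoter class had a median of -0.01. The 14 tested promoter-class peaks of the stretch had a median of 0.07 with 11 above 0. Neighbouring peaks come from the same libraries, so these counts are not independent observations. Mdm2 itself held 5812, 5484, 6697 and 6314 normalised counts against 5666, 6006, 6451 and 5781 (log2 fold change 0.02, SE 0.10). Cpm held 1207, 1440, 791 and 1025 against 979, 894, 875 and 998 (0.25, SE 0.12), where Kdm5c siRNA replicate 2 was the highest and replicate 3 the lowest of all 8. Without them in turn the value for Cpm was 0.10 and 0.38.

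The other days share no library with day -2 and gave a separate look at the peaks named here. Reciprocal overlap of 50% was found on day -1 for 62.7% of promoter-class peaks and 15.7% of other peaks, and on day 0 for 66.2% and 14.6%. Of the 19 named promoter-class peaks, 17 had a tested match on day -1 and 7 of these had the same sign. On day 0 it was 7 of 16. Of the 12 named peaks inside genes, 5 of 7 with a match had the same sign on day -1 and 5 of 8 on day 0. The same-sign share over all matched tested peaks was 51.6% of 17524 and 47.7% of 17328. Hist1h1c was at -0.62 on day -2 and 0.04 on day -1, and Mus81 at 0.70, -0.04 and -0.18 on the 3 days. Mrpl36 was at -0.74, -0.82 and -0.34, and the Gm10222 and Gm10925 peak at -0.67, -0.46 and -0.51. Per mitochondrial count the latter peak differed by only -0.07 on day -2, and that value was not computed for the other days. Differences between days were not tested.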

How the data were processed

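ATAC-seq libraries of day -2 were analysed from the authors' deposited table of raw read counts per peak. Normalised signal for peaks with a gene name was also deposited by the authors, and it was used only for those names. The submitters' processing notes list DESeq2 1.24.0, HTSeq 0.9.1, MACS2 2.1.1, Bowtie2 2.2.9 and cutadapt 2.3, and the build GRCm38. Not given in the sources used here are their settings, the handling of duplicates, multi-mapping reads and transposase offset, and whether starts count from 0 or 1.

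Counts of nuclear peaks were tested with the quasi-likelihood test of edgeR 4.0.16 (filterByExpr, no covariate, two-sided), with Benjamini-Hochberg adjustment over 44194 peaks. TMM factors and library sizes came from the nuclear peaks that passed filterByExpr. Standard errors were the absolute log2 fold change divided by the square root of the quasi-likelihood F statistic. They are unreliable where the fold change is near 0: Col3a1 got 0.08 and Tnc 0.33 at like counts. For normalised counts each raw count was divided by the library's TMM-scaled total over the tested nuclear peaks, set relative to the geometric mean. A level per kb divides them by peak width. DESeq2 1.42.0 and limma 3.58.1 (voom) were alternatives, and the fit was tested on simulated data. Shares per library were compared by exact permutation tests, two-sided, in Python 3.11.15. The biological coefficient of variation was 0.221. The numbers shared by the arms are not shown to pair the libraries.

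The rule for named genes took called peaks. By smallest p in each direction it took 10 promoter-class peaks without clone symbols and 6 peaks inside 1 coding gene. Both of these sets needed at least median abundance and arms that did not overlap. The rule also took the 10 promoters highest in scramble, H3 lysine 4 demethylase genes, and list members with an unadjusted p under 0.05. Of the 10 higher promoter-class peaks, 1 is not reported here. A gene was represented by its most counted promoter-class peak. Members and lists were chosen with earlier results of these data known. Gene spans and starts came from RefSeq tables of GRCm38.p6, which held 98.4% of the authors' gene names, and chromosome 18 is not in the start table.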

Additional observations from a re-analysis of the deposited data

Results flagged for a closer look

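In 7 of 98 groups of 4 libraries at named peaks, 1 library lay far from the other 3 (Dixon's criterion, which chance meets in about 1 of 20 groups). At Nckap5l scramble replicate 4 was high at 88.7 normalised counts, and at Hrasls5 Kdm5c siRNA replicate 2 was high at 48.7. Scramble replicate 2 was low at Mbnl2, at 71.2, and high at Mrpl36, at 76.3. At the peak inside Prss36, replicate 4 was low in both arms, at 49.1 with Kdm5c siRNA and 25.9 with scramble. Kdm5c siRNA replicate 4 was low at Kdm1a, at 21.1.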

How the results depend on the processing

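The number of called peaks was 1 in the reported fit, and 2 with mitochondrial peaks kept, 0 at or above the median abundance, 0 without high-count windows, which removes the called peak itself, and 0 with DESeq2, on all nuclear peaks or on the tested ones alone, the latter chosen after seeing the data. Leaving out 1 library at a time gave 1 to 6 calls, with 6 without Kdm5c siRNA replicate 3, 3 without scramble replicate 1 and 2 without Kdm5c siRNA replicate 4. The Gm10222 and Gm10925 peak was at -0.67 (adjusted p = 0.934) at or above the median abundance and -0.71 (adjusted p = 1.0) or -0.67 (0.984) with DESeq2 on all or the tested peaks, against adjusted p of 9.84e-09 to 0.0449 under the other settings that tested it. Peaks at an unadjusted p under 0.05 numbered 2050, with 3391 without a filter, 1160 at or above the median abundance and 1691 to 3543 with 1 library left out, the most without Kdm5c siRNA replicate 3.

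The numbers 1 to 4 of both arms are not shown to pair the libraries: same-number correlations of deviations were 0.02, -0.03, 0.16 and -0.02, and with the replicate block 1 peak was called and 2164 had an unadjusted p under 0.05.

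None of the differences between arms in shares of nuclear counts passed the threshold, and several changed sign. Over tested peaks alone, in percentage points, they were 0.519 for promoter-class peaks, -0.366 for peaks inside a gene and 0.215 for peaks at least 1 kb wide. With 1 library left out they ran from -0.493 to 0.386 for promoter-class peaks, from -0.290 to 0.235 inside a gene, from -0.352 to 0.112 elsewhere, from -0.378 to 0.0642 for wide peaks and from -0.104 to 0.247 for the 1000 most counted. Chromosomes at an unadjusted exact p under 0.05 numbered 1, with 0 under the replicate block, whose 4 pairs cannot reach that threshold, and 1 to 2 with 1 library left out. List genes at an unadjusted p under 0.05 numbered 17, with 10 to 22 when 1 library was left out, the fewest in the absence of Kdm5c siRNA replicate 2, and 11 in that of scramble replicate 1.

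Log2 fold changes near 0 changed sign. Mdm2 was at -0.021 without a filter and -0.015 with DESeq2, and Lyz2 at -0.0045 without a filter. With 1 library left out the ranges were -0.034 to 0.268 for AY036118, -0.034 to 0.070 for Mdm2, -0.13 to 0.31 for Mir6236, -0.099 to 0.010 for Slc35e3, -0.028 to 0.207 for Fau-ps2, -0.050 to 0.171 for Lyz2, -0.11 to 0.0034 for Kdm1b and -0.67 to 0.023 for Kdm2b. The shares in peaks under 150 bp wide and in the most counted peak, and the median of the histone list under each setting, were alternatives chosen after seeing the data. The cause of these changes was not tested. Intervals were wider at other peaks than at promoters, with a median standard error of 0.37 against 0.20.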
